A study of Homo sapiens with 5 samples.

Results

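The genes described here encode the nuclear subunits of the 5 enzyme complexes of oxidative phosphorylation. Members were the entries of the authors' gene table with a RefSeq mRNA identifier whose current symbol begins with NDUFA, NDUFB, NDUFC, NDUFS or NDUFV and a number, is SDHA, SDHB, SDHC or SDHD, or begins with UQCR, COX4 to COX8, ATP5F, ATP5M or ATP5P. This rule found 72 of 20220 entries: 31 of complex I, 4 of complex II, 9 of complex III, 16 of complex IV and 12 of complex V. It uses names and no measured values. A further 14 protein-coding symbols fit the same naming rule but had no such entry and were not analysed here: ATP5F1E, ATP5MF, ATP5MF-PTCD1, ATP5MG, ATP5MGL, ATP5MK, ATP5PF, COX8C, NDUFA2, NDUFB6, NDUFC1, NDUFC2, NDUFC2-KCTD14 and NDUFS3.

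The cells were HEK 293T, a human embryonic kidney line made to express SV40 T antigen. Treated cells (2 libraries) had received 1 µM 5-aza-CdR, a cytidine analog that traps DNA methyltransferases, for 3 days; recovery cells (1 library) had received the same course and were then kept without the drug for 30 days; control cells (2 libraries) had no drug. RNA depleted of ribosomal RNA was sequenced, and the authors deposited 1 FPKM (fragments per kilobase of transcript, scaled to the total of mapped fragments) per gene and group, with the libraries of a group already combined. The read depth of the libraries is unknown, and since no value of a single library was used, no SD or n stands beside a level and the only tests are the authors' q-values.

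Of 10 genes chosen as known to be expressed in this line, 9 had an entry. VIM (181 FPKM in treated cells, 246 in recovery cells and 316 in control cells), CDH2 and NEFL were expressed in all groups, and PAX2, NEFM, NEFH and IRS4 were listed at 0 in control cells. Of 4 skeletal and heart muscle genes, ACTA1, MYH7, TNNT2 and CKM, none was above 1.32 FPKM in any group, with summed levels of 2.40 FPKM in treated cells, 2.29 FPKM in recovery cells and 0.287 FPKM in control cells.

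Complexes I and II pass electrons from NADH and succinate to ubiquinone, complex III passes them to cytochrome c and complex IV to oxygen. Complexes I, III and IV pump protons across the inner mitochondrial membrane, and complex V, the ATP synthase, uses the resulting gradient to make ATP. Most subunits are encoded in the nucleus and used in nearly every cell, while a few complex IV subunits have isoforms made mainly in muscle, lung or testis.

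Because the drug acts on CG methylation, promoter windows are shown for the tissue isoform that was above 5 FPKM in treated cells alone, COX7B2, beside its general counterpart COX7B, and for the isoforms COX6A2 and COX6B2, which stayed at or near 0. Each window runs from 250 bases before the gene start to 50 after it, read 5′ to 3′ on the gene's strand from RefSeq (GRCh38.p14), with every CG in capitals. The regions are chr4:46909196-46909495 (minus strand) for COX7B2, chrX:77899218-77899517 (plus strand) for COX7B, chr16:31428311-31428610 (minus strand) for COX6A2 and chr19:55354670-55354969 (minus strand) for COX6B2.
COX7B2: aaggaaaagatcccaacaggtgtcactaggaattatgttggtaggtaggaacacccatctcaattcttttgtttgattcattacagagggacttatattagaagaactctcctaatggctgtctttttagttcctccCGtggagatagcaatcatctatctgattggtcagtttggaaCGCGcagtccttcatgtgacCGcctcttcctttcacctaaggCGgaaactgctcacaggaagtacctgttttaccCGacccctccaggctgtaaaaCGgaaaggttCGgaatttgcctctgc
COX7B: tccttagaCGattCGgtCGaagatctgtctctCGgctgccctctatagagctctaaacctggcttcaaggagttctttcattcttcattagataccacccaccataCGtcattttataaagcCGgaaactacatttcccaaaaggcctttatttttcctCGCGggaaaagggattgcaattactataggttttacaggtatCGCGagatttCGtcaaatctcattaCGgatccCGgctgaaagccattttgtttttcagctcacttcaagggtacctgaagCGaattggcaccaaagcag
COX6A2: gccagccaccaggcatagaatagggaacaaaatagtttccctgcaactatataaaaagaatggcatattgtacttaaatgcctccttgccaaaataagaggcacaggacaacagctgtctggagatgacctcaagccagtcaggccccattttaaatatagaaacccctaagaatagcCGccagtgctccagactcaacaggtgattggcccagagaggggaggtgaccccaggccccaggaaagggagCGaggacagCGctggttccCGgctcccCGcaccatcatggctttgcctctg
COX6B2: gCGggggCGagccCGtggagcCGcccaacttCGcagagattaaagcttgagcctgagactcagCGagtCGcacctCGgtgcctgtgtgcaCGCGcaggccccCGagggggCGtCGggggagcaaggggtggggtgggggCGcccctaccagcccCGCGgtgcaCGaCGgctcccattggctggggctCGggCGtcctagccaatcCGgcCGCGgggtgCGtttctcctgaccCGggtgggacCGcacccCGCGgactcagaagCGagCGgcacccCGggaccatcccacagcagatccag
COX7B2 holds 8 CG, COX7B 14, COX6A2 5 and COX6B2 31. Windows were given for 59 of the 72 members, 68 windows in all, and held a median of 22 CG, against 14 over all 35116 windows of the table. COX7B2, COX6A2 and the general isoform COX7B thus lay under the members' lower quartile of 15, and COX6B2 above their upper quartile of 29.25.

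The other windows shown hold the letters bound by factors known to drive subunit genes in many tissues: NRF1 (GCATGCGC), GABPA (CCGGAAGT) and YY1 (AAGATGGC), each searched on both strands. The NRF1 letters stood in 14 of 68 member windows (20.6%) and in 3.05% of all windows. Those of GABPA stood in 10 (14.7%, against 4.14%) and those of YY1 in 11 (16.2%, against 2.89%). The NRF1 and GABPA letters hold a CG, and member windows held more CG than all windows (median 22 against 14). Shares among windows of like CG count were not computed. COX5B (chr2:97645812-97646111, plus strand) and SDHB (chr1:17053983-17054282, minus strand) are shown as 2 of the 5 members whose windows hold the letters of a pair of these factors, here in capitals; the others are SDHD, NDUFA6 and NDUFS7.
COX5B: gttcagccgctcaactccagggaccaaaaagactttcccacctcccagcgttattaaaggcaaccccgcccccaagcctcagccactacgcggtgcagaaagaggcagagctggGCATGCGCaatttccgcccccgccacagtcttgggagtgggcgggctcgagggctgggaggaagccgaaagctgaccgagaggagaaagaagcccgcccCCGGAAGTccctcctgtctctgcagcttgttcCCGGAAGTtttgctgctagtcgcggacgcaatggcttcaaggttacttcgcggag
SDHB: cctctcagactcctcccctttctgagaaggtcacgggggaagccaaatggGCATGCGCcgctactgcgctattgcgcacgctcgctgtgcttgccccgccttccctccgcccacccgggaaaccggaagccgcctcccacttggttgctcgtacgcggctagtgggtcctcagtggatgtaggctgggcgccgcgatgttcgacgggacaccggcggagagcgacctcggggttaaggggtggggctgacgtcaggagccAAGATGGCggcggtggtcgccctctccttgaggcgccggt
COX5B holds the letters of NRF1 and GABPA, and SDHB those of NRF1 and YY1. A match of letters is a description of the window, not a measured site. COX5B was at 383 FPKM in treated cells, 466 FPKM in recovery cells and 506 FPKM in control cells, and SDHB at 109, 138 and 87.7 FPKM in the same order of groups.

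The subunit genes were highly expressed in every group. Their median level was 114 FPKM in treated cells, 127 FPKM in recovery cells and 117 FPKM in control cells, and 40, 41 and 39 of the 72 were at 100 FPKM or more in treated, recovery and control cells. Summed over members, the level was 12028 FPKM in treated cells, 13060 FPKM in recovery cells and 13152 FPKM in control cells, which is 2.77%, 2.45% and 2.62% of the FPKM of all entries with a RefSeq mRNA identifier. The members' summed level in treated cells was 0.915 times that in control cells, and in recovery cells 0.993 times. All entries with a RefSeq mRNA identifier summed to 434411 FPKM in treated cells, 532791 FPKM in recovery cells and 502652 FPKM in control cells. Of the 10 highest members of each group, 8 were the same in all groups, led by COX8A at 764 FPKM in treated cells, 718 FPKM in recovery cells and 714 FPKM in control cells. Listed at 0 were 1 member in treated cells, 4 in recovery cells and 5 in control cells, all of them tissue isoforms of complex IV.

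**Figure D1:**
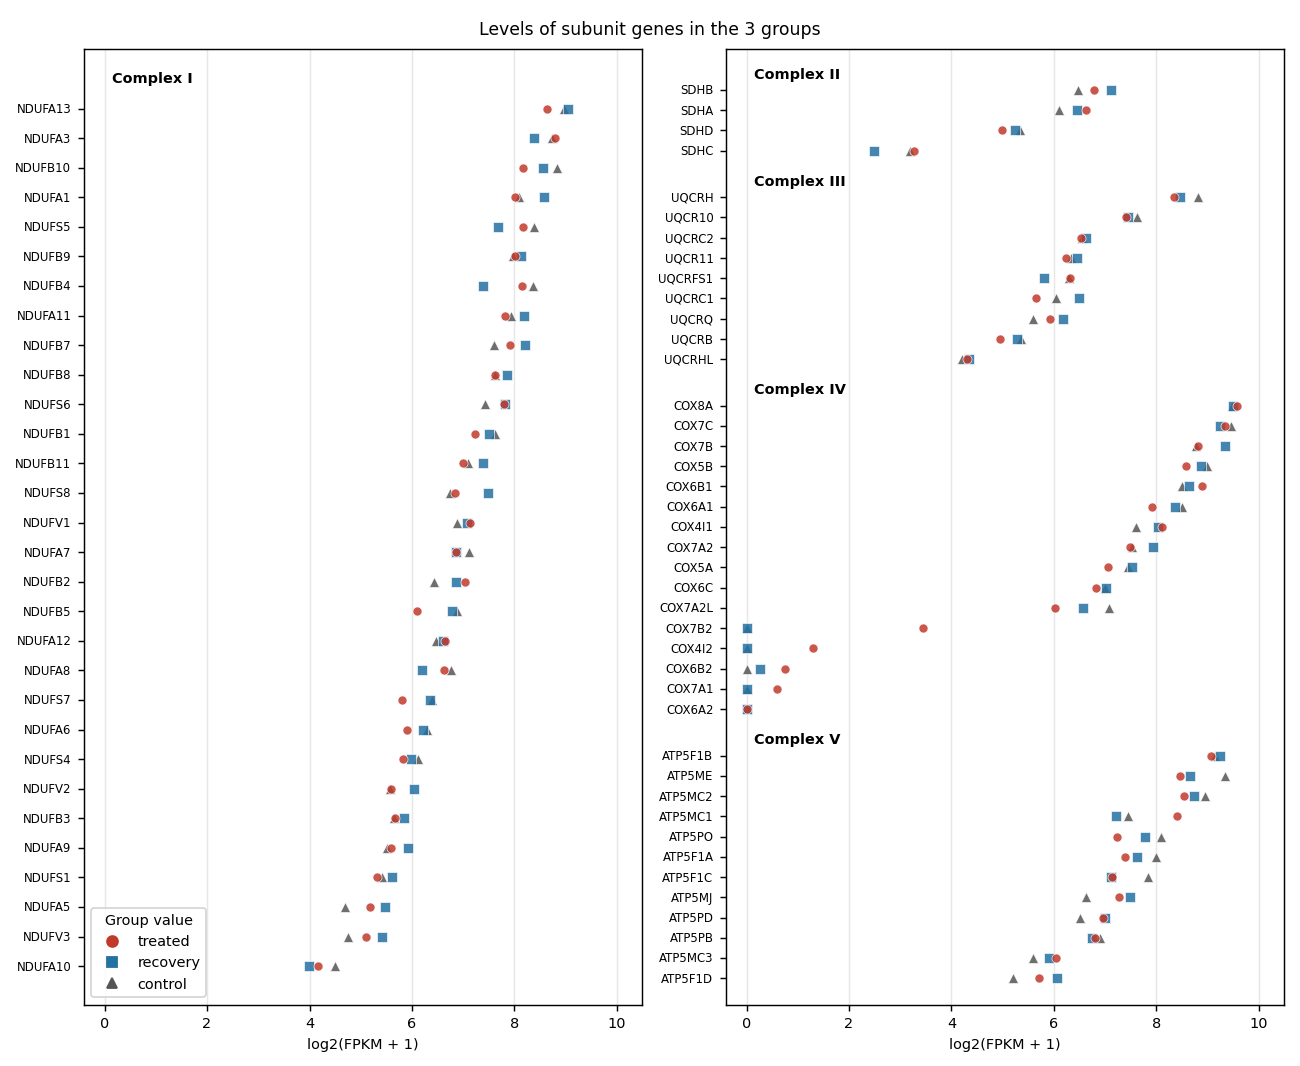
Level of the members, all but 1 of the 72, by complex and in order of its mean, as log2(FPKM + 1); circles are treated, squares recovery and triangles control cells, 1 group value each. The 3 symbols of most genes lie close together, COX8A is highest, and the tissue isoforms of complex IV lie at or near 0 apart from COX7B2 in treated cells.

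No subunit gene passed the authors' test in either comparison. In the authors' deposited table, 0 of the 68 members with a q-value under 1 were called at q under 0.05 in treated against control cells, where 1.36% of the 11256 such entries of the table were called. For recovery against control cells the authors' deposited table called 0 of 67 members, and 1.34% of 11174 entries. Of 1423 such entries that averaged at least 50 FPKM, 6 were called higher and 6 lower in treated cells. Of 1426 in recovery cells, 4 were called higher and 1 lower. A count of 0 among the members is thus near the share of all entries. The lowest q of any member in the authors' deposited table was 0.208 (COX7B2) for treated cells and 0.611 (NDUFB4) for recovery cells. The calls are from Cuffdiff; unadjusted p-values were not used here and no other tool was run. Both comparisons share the control libraries.

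Differences in level were small for most members. They were computed as differences of log2(FPKM + 1), which understates those of low genes, for the 68 members that averaged at least 0.5 FPKM across the 3 groups. The median difference was -0.09 in treated cells (quartiles -0.36 and 0.19), against 0.01 over all 12712 entries that passed the same filter (quartiles -0.42 and 0.52). In recovery cells it was 0.08 (quartiles -0.21 and 0.42), against 0.00 over all entries (quartiles -0.38 and 0.46). In treated cells 30 members were higher and 38 lower than in control cells, and in recovery cells 38 were higher and 29 lower.

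A difference of 1.5-fold on this scale was passed by few members. In treated cells 4 of 68 were higher by that much (5.88%), where 22.9% of all entries were, and 7 were lower (10.3%, against 18.4%). In recovery cells 7 were higher (10.3%, against 20.9%) and 5 lower (7.35%, against 15.7%). Among entries that averaged at least 50 FPKM the background shares were smaller. There, 5.17% of 58 members were higher in treated cells, against 10.96% of 1433 entries, and 12.1% lower, against 14.4%. For recovery cells the shares at that level were 8.62% of members higher, against 10.9% of entries, and 6.90% lower, against 7.12%. ATP5MJ was past 1.5-fold higher in both treated and recovery cells, and ATP5ME and ATP5F1C past it lower in both.

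**Figure D2:**
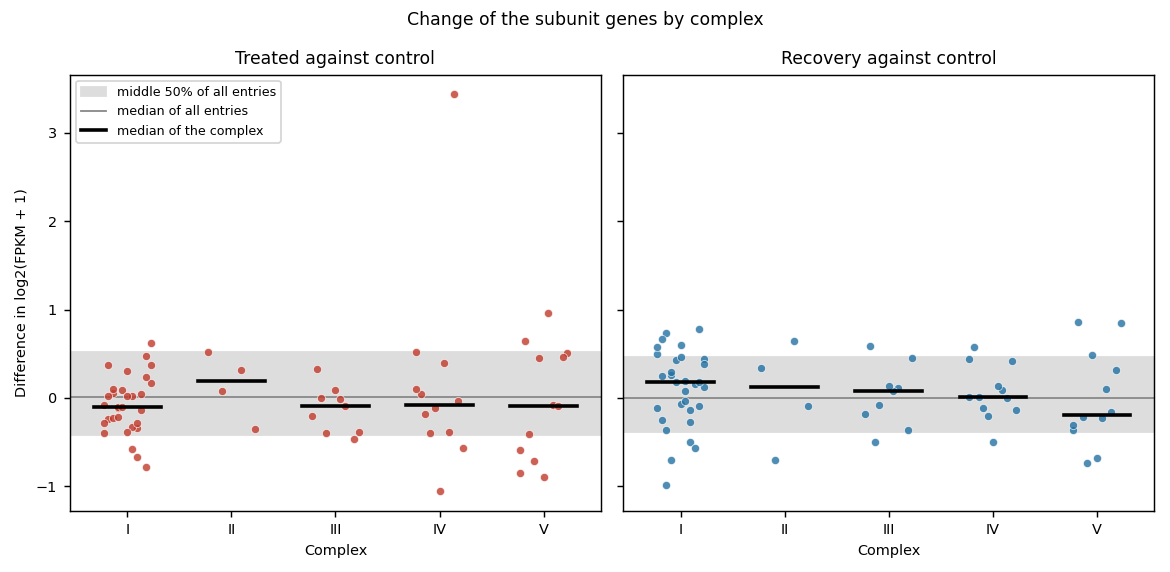
Difference of log2(FPKM + 1) from control cells for the 68 members that passed the filter, by complex, in treated and in recovery cells; points are members, black bars the medians of the complexes, and the grey band the quartiles of all 12712 entries. The treated medians run from -0.10 in complex I to 0.20 in complex II, and the recovery medians from -0.19 in complex V to 0.18 in complex I.

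Complex I, the NADH dehydrogenase, had 28 of its 31 members within 1.5-fold of control cells in treated cells. In recovery cells it had 25, both on the log2(FPKM + 1) scale. Its median level was 116 FPKM in treated cells, 116 FPKM in recovery cells and 117 FPKM in control cells. The highest members were accessory subunits. NDUFA13, which is also known as GRIM-19, was at 395 FPKM in treated cells, 527 FPKM in recovery cells and 498 FPKM in control cells. NDUFA3 was at 444 FPKM in treated cells, 332 FPKM in recovery cells and 427 FPKM in control cells.

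The 6 core subunits of complex I measured here belong to the arm that faces the matrix and takes up electrons from NADH. Their median difference from control cells was -0.04 in treated cells and 0.32 in recovery cells, where 5 of 6 were higher and their summed level was 1.295 times that of control cells. NDUFS8, an iron-sulfur subunit, was at 113 FPKM in treated cells, 177 FPKM in recovery cells and 106 FPKM in control cells. Its recovery level was 1.68 times the control level, for which the authors' deposited table gives q = 0.891. NDUFV1, which binds NADH, was at 139 FPKM in treated cells, 133 FPKM in recovery cells and 118 FPKM in control cells. NDUFS7 was the core subunit with the lowest treated level relative to control cells, at 55.1 FPKM in treated cells, 80.5 FPKM in recovery cells and 82.6 FPKM in control cells.

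The 10 NDUFB subunits sit in the far end of the membrane arm, and their median differences were -0.05 in treated cells and 0.18 in recovery cells. In treated cells they held the complex I members farthest from control cells on either side, and in recovery cells the lowest. NDUFB4 was at 282 FPKM in treated cells, 166 FPKM in recovery cells and 330 FPKM in control cells, so its recovery level was 1.98-fold lower than the control level (q = 0.611 in the authors' deposited table). NDUFB5 was at 67.4 FPKM in treated cells, 110 FPKM in recovery cells and 117 FPKM in control cells, 1.73-fold lower in treated cells (q = 0.881 in the authors' deposited table). NDUFB10 was likewise lower in treated cells, at 288 FPKM, against 378 FPKM in recovery cells and 456 FPKM in control cells. NDUFB2 lay the other way, at 131 FPKM in treated cells, 116 FPKM in recovery cells and 84.8 FPKM in control cells. NDUFB7 was 1.51 times its control level in recovery cells, at 241 FPKM in treated cells, 294 FPKM in recovery cells and 194 FPKM in control cells. NDUFB8, a subunit often used as a marker of assembled complex I, was at 197 FPKM in treated cells, 232 FPKM in recovery cells and 195 FPKM in control cells.

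The other 15 accessory subunits had median differences of -0.11 in treated cells and 0.08 in recovery cells. None was past 1.5-fold in treated cells, and 3 were in recovery cells. NDUFA5, whose entry spans 0.261 times the length of the gene in the RefSeq table, was at 35.1 FPKM in treated cells. It was at 43.5 FPKM in recovery cells and 24.97 FPKM in control cells. NDUFV3 was at 33.6 FPKM in treated cells, 41.5 FPKM in recovery cells and 25.8 FPKM in control cells. NDUFS5 was lower in recovery cells, at 286 FPKM in treated cells, 205 FPKM in recovery cells and 333 FPKM in control cells, for which the authors' deposited table gives q = 0.898. The X-linked NDUFA1 was at 257 FPKM in treated cells, 382 FPKM in recovery cells and 271 FPKM in control cells.

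Complex II, succinate dehydrogenase, also belongs to the tricarboxylic acid cycle and had all 4 of its subunits in the table. The catalytic subunits were higher than the membrane anchors in every group. SDHA, the flavoprotein, was at 97.4 FPKM in treated cells, 86.1 FPKM in recovery cells and 67.8 FPKM in control cells. SDHB, the iron-sulfur subunit given above, was 1.57 times its control level in recovery cells (q = 0.927 in the authors' deposited table). SDHC, an anchor, was the lowest of the 4, at 8.62 FPKM in treated cells, 4.60 FPKM in recovery cells and 8.11 FPKM in control cells. SDHD, the other anchor, was at 30.6 FPKM in treated cells, 36.8 FPKM in recovery cells and 39.3 FPKM in control cells. In treated cells all 4 subunits were within 1.5-fold of control cells, and in recovery cells SDHB was past it upward and SDHC downward.

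On the log2(FPKM + 1) scale, all 9 members of complex III, the cytochrome bc1 complex, lay within 1.5-fold of control cells in both comparisons. Its median differences were -0.09 in treated cells and 0.07 in recovery cells. Without UQCRQ and UQCRHL, whose entries span over 1.2 times the gene, an alternative chosen after seeing the data, the medians were -0.20 in treated cells and -0.075 in recovery cells. UQCRH, the hinge subunit, was highest, at 326 FPKM in treated cells, 350 FPKM in recovery cells and 450 FPKM in control cells. UQCRC1, a core subunit, was at 49.0 FPKM in treated cells, 88.6 FPKM in recovery cells and 64.4 FPKM in control cells. Its partner UQCRC2 differed less, at 91.7 FPKM in treated cells, 97.3 FPKM in recovery cells and 92.4 FPKM in control cells. UQCRFS1, the Rieske iron-sulfur protein, was at 78.1 FPKM in treated cells, 54.9 FPKM in recovery cells and 78.0 FPKM in control cells. UQCRQ, whose entry spans 3.47 times the length of the gene in the RefSeq table, was at 59.4 FPKM in treated cells, 71.2 FPKM in recovery cells and 47.2 FPKM in control cells. As plain FPKM its recovery level was 1.51 times its control level, which the added 1 brings just under 1.5-fold.

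Complex IV, cytochrome c oxidase, held the most abundant member and all members listed at 0 in any group. Its 11 general subunits had median differences of -0.12 in treated cells and 0.01 in recovery cells. COX7C was at 644 FPKM in treated cells, 607 FPKM in recovery cells and 698 FPKM in control cells. COX6B1 was at 475 FPKM in treated cells, 395 FPKM in recovery cells and 360 FPKM in control cells, and COX4I1, needed for assembly of the enzyme, at 276, 262 and 193 FPKM in the same order of groups. COX6A1 lay lower in treated cells, at 242 FPKM, against 327 FPKM in recovery cells and 360 FPKM in control cells.

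COX7A2L, known to join complexes III and IV in a supercomplex, had the second-lowest q of any member in treated cells. It was at 64.0 FPKM in treated cells, 94.5 FPKM in recovery cells and 134 FPKM in control cells. Its treated level was 2.09-fold lower than the control level, for which the authors' deposited table gives q = 0.563, and its recovery value had q = 0.939 there. COX7A2, the general isoform of the same family, was at 179 FPKM in treated cells, 244 FPKM in recovery cells and 183 FPKM in control cells. COX7A2L (hg19 chromosome 2, 42577645 to 42588356) made up 26.3% of the summed FPKM of its family in treated cells, 27.9% in recovery cells and 42.2% in control cells. The COX7A2L entry spans 0.321 times the length of the gene in the RefSeq table, and the COX7A2 entry 0.495 times. Whether this bears on their levels was not tested.

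The 5 tissue isoforms of complex IV in the table were at 0 in control cells, and 4 of them were above 0 in treated cells. Of all 7562 entries listed at 0 in control cells, 32.8% were above 0 in treated cells, while 292 entries at 0 in treated cells were above 0 in control cells. By the commonest ratios of values over all entries, taken as those of 1 fragment in each group, a fragment was worth 0.757 times as many FPKM in treated cells as in control cells and 0.494 times as many as in recovery cells. The treated to control ratio rests on 110 of 12366 entries above 0 in both groups. A fragment was worth 1.53 times as many FPKM in recovery cells as in control cells. Of the entries at 0 in control cells, 20.9% were above 0 in recovery cells. In turn, 563 entries at 0 in recovery cells were above 0 in control cells. By these ratios low genes were sampled more deeply in treated cells, and the part of this in the 4 isoforms was not tested. COX7B2, an isoform known from testis (hg19 chromosome 4, 46736847 to 46911252), was at 9.83 FPKM in treated cells and listed at 0 in recovery cells and in control cells. Its q of 0.208 in the authors' deposited table did not pass, and no fold is given against a group listed at 0. COX7B2 remained a small share of its family, 2.15% of the summed COX7B and COX7B2 level of treated cells, since COX7B was at 448 FPKM in treated cells, 651 FPKM in recovery cells and 435 FPKM in control cells. In bulk RNA, a few cells with much COX7B2 RNA and many cells with little cannot be told apart.

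The other isoforms were under 2 FPKM everywhere. COX4I2, the lung isoform, was at 1.45 FPKM in treated cells and listed at 0 in recovery and control cells. COX7A1, of heart and muscle, was at 0.499 FPKM in treated cells and listed at 0 in recovery and control cells. COX6B2, known from testis, was at 0.671 FPKM in treated cells, at 0.194 FPKM in recovery cells and listed at 0 in control cells. On the fragment scale given above, the treated and recovery values of COX6B2 stand as 7 fragments to 1 (ratios were grouped within a tolerance of 0.002). COX6A2, of muscle, was listed at 0 in all groups. The authors gave q = 1 to all of these isoforms other than COX7B2 in the authors' deposited table.

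**Figure D3:**
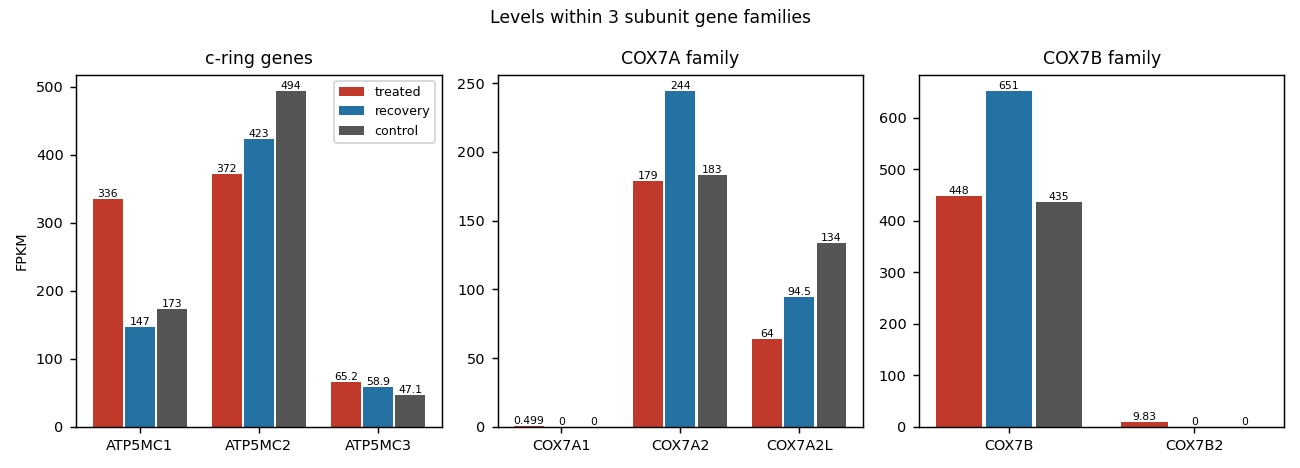
Bars give the FPKM, 1 value per group, of the members of 3 subunit families (ATP5MC, COX7A and COX7B) in treated, recovery and control cells. ATP5MC1 is at 336 FPKM in treated cells, 147 FPKM in recovery cells and 173 FPKM in control cells, COX7A2L at 64.0, 94.5 and 134 FPKM, and COX7B2 is above 0 in treated cells alone.

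Complex V, the ATP synthase, spread the most of the 5 complexes in treated cells. The interquartile range of its 12 members was 1.10 on the log2 scale, against 0.376 to 0.560 in the other complexes, and 6 of 12 lay within 1.5-fold of control cells. Over all entries that range was 0.941 in treated cells, and 7457 of 12712 lay within 1.5-fold. All complex V members averaged at least 50 FPKM. Among all entries at that level the range was 0.635 in treated cells, and 1069 of 1433 lay within 1.5-fold. In recovery cells 8 of 12 members of complex V did. There its range was 0.681, beside 0.662 in complex II and 0.844 over all entries. Among entries averaging at least 50 FPKM the recovery range was 0.546, and 1175 of 1433 lay within 1.5-fold. Its median differences were -0.09 in treated cells and -0.19 in recovery cells, with single members on both sides. Over the 4 members with no named pseudogene (ATP5F1D, ATP5MC3, ATP5ME and ATP5MJ), chosen after seeing the data, the medians were 0.48 in treated cells and 0.58 in recovery cells.

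The catalytic head and central stalk are formed by ATP5F1A to ATP5F1D and one more small subunit. ATP5F1B, the catalytic beta subunit, was at 536 FPKM in treated cells, 607 FPKM in recovery cells and 567 FPKM in control cells. ATP5F1A, the alpha subunit, was at 167 FPKM in treated cells, 196 FPKM in recovery cells and 253 FPKM in control cells. ATP5F1C, the gamma subunit that turns inside the head, was at 139 FPKM in treated cells, 137 FPKM in recovery cells and 229 FPKM in control cells, with q = 0.882 for treated and q = 0.875 for recovery cells in the authors' deposited table. ATP5F1D, the delta subunit, lay on the other side, at 51.5 FPKM in treated cells, 65.3 FPKM in recovery cells and 35.9 FPKM in control cells. Subunits of 1 rotor and head thus differed from control cells in both directions, none of them past the authors' test.

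The peripheral stalk holds the head still. ATP5PO, its top subunit, was at 150 FPKM in treated cells, 219 FPKM in recovery cells and 271 FPKM in control cells, 1.80-fold lower in treated cells for which the authors' deposited table gives q = 0.789. ATP5PD was at 123 FPKM in treated cells, 127 FPKM in recovery cells and 90.1 FPKM in control cells. ATP5PB was at 111 FPKM in treated cells, 105 FPKM in recovery cells and 118 FPKM in control cells. The 3 stalk genes therefore shared no direction.

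In the membrane part, ATP5MC1, ATP5MC2 and ATP5MC3 encode the same mature c subunit of the proton-driven ring. ATP5MC1 (hg19 chromosome 17, 46970148 to 46973232) was at 336 FPKM in treated cells, 147 FPKM in recovery cells and 173 FPKM in control cells. Its treated level was 1.95 times the control level, for which the authors' deposited table gives q = 0.696. ATP5MC2 was at 372 FPKM in treated cells, 423 FPKM in recovery cells and 494 FPKM in control cells, and ATP5MC3 at 65.2, 58.9 and 47.1 FPKM in the same order of groups. The family summed to 773 FPKM in treated cells, 630 FPKM in recovery cells and 713 FPKM in control cells. ATP5MC1 made up 43.4% of that sum in treated cells, 23.4% in recovery cells and 24.2% in control cells, and ATP5MC2 48.2%, 67.3% and 69.2%. ATP5MC1 has 8 named pseudogenes in the RefSeq gene table, and how fragments shared with them were assigned is not given in the sources used here.

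ATP5ME, the e subunit where synthase dimers meet, was at 350 FPKM in treated cells, 405 FPKM in recovery cells and 652 FPKM in control cells. Its q-values in the authors' deposited table were 0.791 for treated and 0.918 for recovery cells. ATP5MJ, a small membrane subunit, was at 154 FPKM in treated cells, 179 FPKM in recovery cells and 98.0 FPKM in control cells, and its q-values in the authors' deposited table were 0.933 for treated and 0.841 for recovery cells. Both lay on the same side of control cells in treated and in recovery cells, and the control libraries behind both comparisons are the same.

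Beside the levels, the authors' deposited table carries text labels under the headers SOM expression and SOM DNA methylation. Entries labelled high in expression, or affected in DNA methylation, were counted here as marked. How these sets were drawn is not given further in the sources used here. An expression mark was on 56 of the 72 members (77.8%), against 12.8% of all entries. All entries had median levels of 2.55 FPKM in treated, 2.43 FPKM in recovery and 2.03 FPKM in control cells, far under the members' medians. The share with this mark among entries of like level was not computed. A methylation mark was on 4 members (5.56%), against 14.1% of all entries, namely COX6A2, COX7A1, NDUFB5 and NDUFS8. COX6A2 and COX7A1 were at or near 0. NDUFB5 was 1.73-fold lower in treated cells (q = 0.881 in the authors' deposited table). In recovery cells it was 0.939 times its control level. NDUFS8 was 1.07 times its control level in treated cells. In recovery cells it was 1.68 times that level (q = 0.891 in the authors' deposited table). The X chromosome carries 3 members, NDUFA1, NDUFB11 and COX7B.

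Genes that act with the subunits were taken from lists of assembly factors and regulators, and none was called in either comparison. Of 17 complex I assembly factors with an entry, 3 were past 1.5-fold higher and 3 lower in treated cells, and 3 higher and 2 lower in recovery cells. Over all entries, 22.9% were past it higher and 18.4% lower in treated cells, and 20.9% higher and 15.7% lower in recovery cells, which is the background for the lists that follow. All 4 complex II assembly factors had an entry, and 3 of them were past 1.5-fold lower in treated cells (18.4% of all entries) and 1 in recovery cells (15.7%). SDHAF4, a chaperone of SDHA, was at 8.65 FPKM in treated cells, 8.76 FPKM in recovery cells and 25.1 FPKM in control cells. SDHAF3 was at 6.87 FPKM in treated cells, 13.0 FPKM in recovery cells and 19.0 FPKM in control cells, and SDHAF2, which helps attach the flavin, at 26.8, 33.5 and 40.9 FPKM in the same order. SDHAF1 was within 1.5-fold of control cells, at 9.94 FPKM in treated cells, 11.9 FPKM in recovery cells and 10.9 FPKM in control cells. The median difference of the 4 was -0.97 in treated cells and -0.40 in recovery cells, beside 0.20 and 0.12 for the 4 complex II subunits.

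The complex III, IV and V assembly lists stood nearer to control cells. Median differences were -0.05 in treated and 0.01 in recovery cells for 8 complex III factors, -0.17 and 0.02 for 19 complex IV factors, and -0.04 and 0.17 for 3 complex V factors. Of 19 complex IV factors, 2 were past 1.5-fold higher and 4 lower in treated cells, and 3 in each direction in recovery cells. Subunits and partners outside the naming rule had 8 entries, with 1 past 1.5-fold higher and 3 lower in treated cells. NDUFAB1, the acyl carrier protein of complex I, was at 67.6 FPKM in treated cells, 144 FPKM in recovery cells and 176 FPKM in control cells, for which the authors' deposited table gives q = 0.419 for treated cells, and was singled out after its values were seen. The 13 protein-coding genes of mitochondrial DNA were not analysed here.

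Regulators of mitochondrial gene expression had 14 members past the filter, of which 4 were past 1.5-fold higher and 2 lower in treated cells, and 4 higher and 1 lower in recovery cells, beside the shares of all entries given for the complex I factors. The genes named next were singled out after their values were seen. POLRMT, the mitochondrial RNA polymerase, was at 13.4 FPKM in treated cells, 14.0 FPKM in recovery cells and 4.47 FPKM in control cells. GABPA, whose letters were searched above, was at 9.93 FPKM in treated cells, 15.8 FPKM in recovery cells and 22.1 FPKM in control cells. NRF1 was at 7.70 FPKM in treated cells, 5.66 FPKM in recovery cells and 7.56 FPKM in control cells, and TFAM, which packages mitochondrial DNA, at 49.5, 44.4 and 53.3 FPKM.

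**Figure D4:**
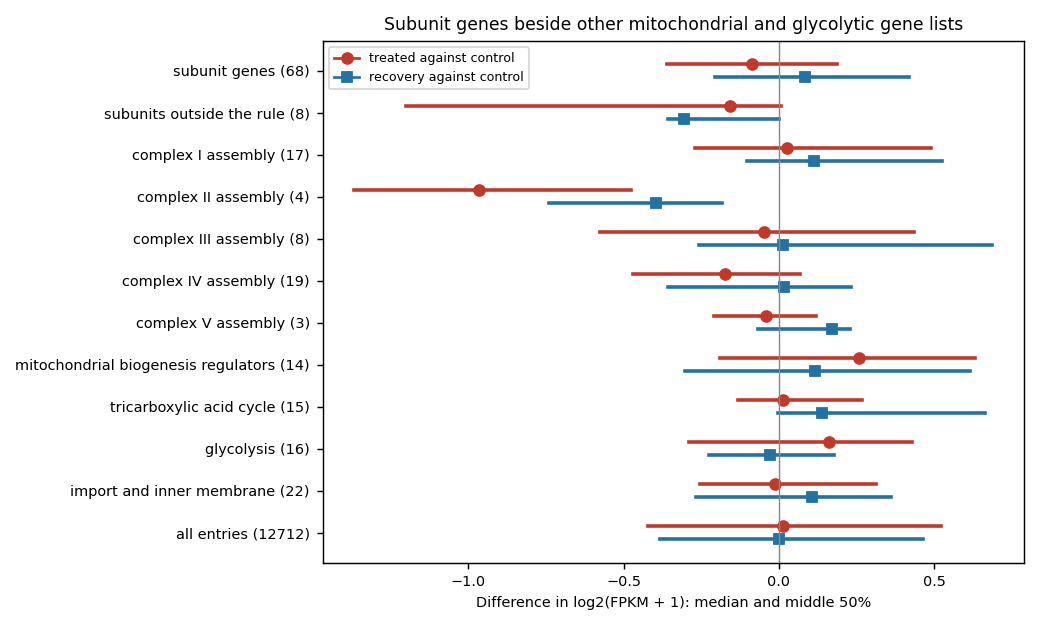
Median difference of log2(FPKM + 1) from control cells, with quartiles as lines, for the subunit genes, the other lists and all entries (number past the filter in brackets), in treated and in recovery cells. The subunit genes lie at -0.09 in treated and 0.08 in recovery cells, and the complex II assembly factors lie lowest, at -0.97 and -0.40.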

How the data were processed

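RNA from 5 libraries of HEK 293T cells was depleted of ribosomal RNA and made into strand-marked libraries, per the labels' protocols. The labels do not tie libraries to cultures, so differences between libraries of 1 group may be technical. The authors deposited FPKM, 1 value per gene and group with libraries combined, and q-values with calls at 0.05 against control cells, per the file headers. Cufflinks and Cuffdiff are named in the submitters' processing notes with no version, beside the builds hg19 and mm9; the coordinates were taken as hg19. The aligner, annotation release and settings of Cuffdiff were not given in the sources used here.

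One of 20221 entries had shifted cells and was left out; 19665 of 20220 matched a symbol of the RefSeq gene table. Differences are of log2(FPKM + 1), for entries averaging at least 0.5 FPKM (68 of 72 members). The 4 members under it are COX4I2, COX6A2, COX6B2 and COX7A1. Whether a q-value passed is the authors' call; no test was added, since there is 1 value per group, and the count test planned for single libraries was not used. Counting was tested on simulated data. Members and lists were chosen with earlier results of these data known. Named were, per complex, the 3 highest members and the 2 farthest from control cells each way at 5 FPKM or more. Isoform families and complex II were named too. Of other lists, the plan was to name genes called or past 3-fold at 5 FPKM or more in both groups. Members and list genes named beside these were chosen for their role or after their values were seen. Values of a few single genes are not reported here. Alternatives were other pseudocounts, filters and scalings. Python 3.11.15, pandas 2.3.3, numpy 2.4.6 and matplotlib 3.10.9 were used.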

Additional observations from a re-analysis of the deposited data

How the results depend on the processing

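Counts of called members stayed at 0 at q under 0.10 and for members above 0 in both groups. The members' median ranged over the alternatives from -0.10 to -0.06 in treated cells and from 0.003 to 0.18 in recovery cells, all kept in direction. One alternative, chosen after seeing the data, kept only members without a named pseudogene (43 of 72 have one). It left 2 members past 1.5-fold higher and 2 lower in treated cells, against 4 and 7. In recovery cells it left 5 higher and 1 lower, against 7 and 5. With fewer members, lower counts follow from its construction, so they do not give the share of the members left. This alternative moved the summed ratio of recovery over control cells to 1.07, against 0.993. It turned the median of complex IV in treated cells to 0.10 and of complex V to 0.48 in treated and 0.58 in recovery cells. The cause was not tested. Small medians also turned with no filter on low values (complex IV, treated cells, 0.021), with quantile scaling (complex IV, recovery cells, -0.017) and, chosen after seeing the data, without the 5 members whose entry spans over 1.2 times the gene (complex III, recovery cells, -0.075, with -0.20 in treated cells). Of 86 named values, quantile scaling turned the sign of 4 in recovery cells (ATP5F1B, COX6B1, COX8A and NDUFA13), scaling to the same median that of 1 (UQCRC2, treated cells), and a pseudocount of 0.1 that of 0.

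No paired analysis was possible because the files hold 1 value per group; leaving out single libraries was not run for the same reason, nor were the alternatives on protein length, for which no protein table was used here. Depth is unknown, recovery is 1 library, and UQCRHL (18.7 FPKM in treated cells, 19.4 in recovery cells and 17.6 in control cells) is nearly identical to UQCRH, so its level is uncertain.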

Other observations

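Genes of neighbouring metabolism were described in the same way, with the genes named here singled out after their values were seen, and none of them was called in the authors' deposited table. Of 15 genes of the tricarboxylic acid cycle, 5 were past 1.5-fold higher and 0 lower in recovery cells, and 1 higher and 1 lower in treated cells. Over all entries, 20.9% were past it higher and 15.7% lower in recovery cells, and 22.9% higher and 18.4% lower in treated cells, which is also the background of the counts that follow. IDH3B, a subunit of isocitrate dehydrogenase, was at 43.6 FPKM in treated cells, 102 FPKM in recovery cells and 63.5 FPKM in control cells.

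Of 16 genes of glycolysis, 2 were past 1.5-fold higher and 2 lower in each comparison. LDHA, which makes lactate from pyruvate, was at 415 FPKM in treated cells, 249 FPKM in recovery cells and 240 FPKM in control cells. SLC16A3, a lactate exporter, was at 8.10 FPKM in treated cells, 0.469 FPKM in recovery cells and 0.918 FPKM in control cells, with q = 0.793 for treated cells in the authors' deposited table. PGAM1, a phosphoglycerate mutase, was at 63.4 FPKM in treated cells, 64.8 FPKM in recovery cells and 116 FPKM in control cells. Of 22 genes of mitochondrial protein import and the inner membrane, 4 were past 1.5-fold higher and 2 lower in treated cells, and 3 higher and 1 lower in recovery cells. TIMM10, a carrier chaperone between the membranes, was at 75.8 FPKM in treated cells, 81.0 FPKM in recovery cells and 30.1 FPKM in control cells.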
